A study of Mus musculus with 12 samples.

Results

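Adherens junctions and desmosomes hold the cells of an epithelium to each other. The mRNA of 10 genes of these junctions was followed: *Cdh1*, *Cdh17*, *Jup*, *Ctnna1*, *Ctnnd1*, *Dsp*, *Pkp2*, *Pkp3*, *Dsg2* and *Dsc2*. They were taken by gene symbol from 54532 genes measured by RNA-seq, as the main epithelial and intestinal cadherins, the catenins that work with β-catenin, including its close relative plakoglobin (*Jup*), and the main desmosomal genes. Each symbol matched 1 gene, and all 10 passed the filter on low expression in both tissues, so none is missing from the counts given here.

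At an adherens junction, cadherins of neighbouring cells bind each other outside the cell, while their tails bind β-catenin or plakoglobin. These armadillo proteins bind α-catenin, which links the junction to actin, and p120-catenin binds nearer the membrane and slows the uptake of the cadherin. In a desmosome, desmogleins and desmocollins take the place of the classical cadherins, plakoglobin and plakophilins sit on their tails, and desmoplakin ties the plaque to keratin filaments. β-catenin also carries Wnt signals into the nucleus, so its gene serves both adhesion and signaling in the gut. When β-catenin is lost, plakoglobin protein can replace it at the cadherin tail.

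The study deleted ieCtnnb1, an intestinal enhancer of *Ctnnb1*, from both chromosomes of C57BL/6 mice by gene editing. The questions asked of the junction genes were whether their mRNA differed when that of *Ctnnb1* was lower, and whether *Jup* in particular was higher. Crypts, the epithelial pits of the small intestine, came from 3 wild-type mice and 3 mice homozygous for the deletion (*Ctnnb1*Δi.enh), all described as adult and untreated. Colon tumors came from 5-month-old untreated mice, 3 carrying *Apc* Min/+ alone and 3 that were *Ctnnb1*Δi.enh;*Apc* Min/+, so both tumor groups carry the truncating Min mutation in 1 copy of *Apc* and only 1 of them lacks the enhancer. The deletion is in the germline and therefore present in every cell, not only in the epithelium. The study describes each library as a separate mouse. The labels do not say so, and if libraries shared a mouse the p-values would measure technical spread. Libraries are numbered here by their replicate number and are given in the order 1, 2, 3.

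Expression is given as FPKM, the fragments per kilobase of gene after a scaling factor per library, which allows levels of different genes to be compared per length. The deposited factor was not plain depth: the median ratio of genes to their geometric mean over libraries was 1.00726 in each crypt library and 1.00454 in each tumor library, while an equal total of FPKM times gene length, used as an alternative, is scaling to depth. The crypt and tumor tables were scaled separately, so tests were made within a tissue and no level is compared between tissues. Differences are on the log2(FPKM + 0.5) scale, where 0.5 is a pseudocount, with positive values for higher expression in mice lacking the enhancer. Genes with a mean of at least 0.5 FPKM in a tissue were tested with limma, which fits a linear model per gene and steadies its variance by those of other genes, and adjusted p-values (Benjamini-Hochberg, over all tested genes) under 0.05 were taken to pass. Each library held between 14457896 and 16156712 fragments on genes, and a single junction gene was covered by 874 to 22526 of them in a library.

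Some crypt libraries stood apart before any junction gene was compared. Summed FPKM of 7 stomach genes (*Gkn1*, *Gkn2*, *Pgc*, *Muc5ac*, *Tff1*, *Tff2*, *Atp4a*) was 160.1, 91.1 and 3.34 in wild-type crypts and 2.56, 6.10 and 2.07 in *Ctnnb1*Δi.enh crypts. Wild-type replicates 1 and 2 were thus far above the other 4 libraries, while wild-type replicate 3 lay among the knockouts. Summed FPKM of 6 Paneth cell genes was 22207, 32165 and 62150 in wild-type crypts and 24788, 21261 and 24641 in *Ctnnb1*Δi.enh crypts, with wild-type replicate 3 the highest. Each junction gene was also fitted without each library in turn, and a change of sign is given beside the gene. These fits cannot remove the difference in stomach genes, since wild-type replicate 1 or 2 remains in each of them. In crypts, effects of the genotype and of what raised the stomach genes cannot be fully told apart. In tumors, no library stood apart on the stomach genes, whose sums were between 2.99 and 5.56. Knockout replicate 2 stood apart there on the Paneth cell genes, with a sum of 4415 against at most 2668 in the others, on mature enterocyte genes (6.69 against at most 3.30) and on brush border and other cadherins (269.6 against at most 177).

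The tissue labels were set against epithelial genes. *Krt8*, a keratin of simple epithelia, was the most abundant of 7 epithelial markers in both tissues, with a mean of 1669 FPKM in crypts and 1588 in tumors. In crypts, summed FPKM of 11 fibroblast and muscle genes was between 7.77 and 15.6, and that of 5 endothelial genes between 0.687 and 1.05. Tumor libraries held more than epithelium, with sums between 468 and 729 for the fibroblast and muscle genes and between 27.4 and 35.1 for the endothelial genes. In either tissue, fewer cells of a type and less RNA per cell cannot be told apart in these bulk libraries.

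The reference for all that follows is *Ctnnb1* (ENSMUSG00000006932; GRCm38 chromosome 9, 120929216 to 120960507, plus strand), whose enhancer was removed. Its 6 crypt values were 121, 134 and 123 FPKM against 102, 104 and 105, a mean lower by 17.6% in the knockout as deposited (percent change -17.6). Its tumor values were 299, 363 and 358 FPKM against 279, 248 and 250.2, with a percent change of -23.7. All knockout libraries were below all controls in both tissues, but neither difference passed adjustment in limma (adjusted p = 0.849 in crypts and 0.303 in tumors, n = 3 per group). With the crypt libraries rescaled to the same sum of FPKM, a scaling chosen after seeing the data, the *Ctnnb1* difference was -0.13 in place of -0.28 and its crypt groups overlapped. Compensation was thus looked for against a partial decrease in *Ctnnb1*, whose 95% intervals on the deposited scale ran from folds of 0.680 to 1.001 in crypts and 0.619 to 0.945 in tumors.

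Plakoglobin, encoded by *Jup* (ENSMUSG00000001552; chromosome 11, 100368958 to 100397763, minus strand), is the closest relative of β-catenin and the member shared by both kinds of junction. In crypts, FPKM of *Jup* was 44.1, 44.8 and 42.8 in wild-type and 45.1, 44.5 and 47.8 in *Ctnnb1*Δi.enh libraries. The groups overlapped, since knockout replicate 2 lay below wild-type replicate 2, and the spread within them was small. Means were 43.9 ± 1.02 and 45.8 ± 1.74 (SD, n = 3 each), a difference of 1.89 FPKM beside -22.2 FPKM for *Ctnnb1* on the deposited scale. In limma, the log2 fold change was 0.060 with a 95% interval from -0.19 to 0.31 (adjusted p = 0.957), so folds from 0.877 to 1.24 were within the error. Without each library in turn it was between 0.029 and 0.079, and without wild-type replicate 2 or knockout replicate 2 all remaining knockouts were above all remaining wild types. Its size and sign were scale dependent, with 0.21 (95% interval -0.19 to 0.61) with the same sum of FPKM and 0.085 with the same total of FPKM times gene length, but -0.053 after quantile normalization, which gives all libraries the same distribution, -0.0017 after rescaling to the same sum of FPKM without the 50 highest genes and -0.022 relative to epithelial markers, taken as the mean log2 level of 6 genes and also chosen after seeing the data.

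In tumors, FPKM of *Jup* was 80.3, 89.5 and 94.2 in *Apc* Min/+ and 88.8, 77.2 and 91.9 in *Ctnnb1*Δi.enh;*Apc* Min/+ libraries. The groups interleaved, and the lowest of all 6 values was a knockout. Means were 88.0 ± 7.10 and 86.0 ± 7.74 (SD, n = 3 each), a difference of -2.01 FPKM against -80.7 FPKM for *Ctnnb1* on the deposited scale. The log2 fold change of *Jup* was -0.034 (95% interval -0.29 to 0.22, folds from 0.817 to 1.17, adjusted p = 0.901 from limma). It turned to 0.041 without knockout replicate 2 and to 0.017 without *Apc* Min/+ replicate 3, but was -0.14 with the same sum of FPKM and -0.21 after quantile normalization. A p that misses the threshold does not show that *Jup* acted alike in the groups, but a rise of *Jup* mRNA above the upper ends of these intervals was not within the error of this fit on the deposited scale in either tissue. Other limma fits on that scale reached higher in crypts. The upper end in log2 was 0.33 without a variance trend, 0.35 with voom and 0.41 with the replicate number as a block. Under the same sum of FPKM, the crypt interval reached 0.61.

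The start of *Jup* is shown because this gene is the candidate for compensation, and because TCF/LEF factors, the DNA-binding partners of β-catenin, recognise the letters CTTTGAT, whose core is the shorter motif CTTTG. Of the 10 members, 3 (*Jup*, *Ctnnd1* and *Dsp*) had an entry among promoters of RefSeq for GRCm38.p6, each holding 250 bases before and 50 after a start site. The *Jup* promoter, chr11:100397741-100398040 on the minus strand, begins its transcript 27 bases from the gene start in the expression table and has a GC content of 60.7%. Its single CTTTG, in capitals, lies 5 bases after the start site.
*Jup*: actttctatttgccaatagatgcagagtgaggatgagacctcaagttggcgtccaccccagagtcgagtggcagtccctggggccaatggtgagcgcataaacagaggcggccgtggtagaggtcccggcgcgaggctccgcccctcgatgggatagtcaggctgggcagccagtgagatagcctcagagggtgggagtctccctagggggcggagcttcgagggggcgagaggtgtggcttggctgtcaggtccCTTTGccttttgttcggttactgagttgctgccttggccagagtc
Both strands were searched, and every CTTTGAT is also a match of CTTTG. The core was found in 53.9% of all 32851 promoters of this length and CTTTGAT, which the *Jup* window does not hold, in 3.73%. An E-box of the kind that repressors of E-cadherin bind, CACCTG, was found in 20.2% of promoters and not in that of *Jup*. The promoter of *Dsp* held 1 CTTTG, 222 bases before its start (position -222), and 1 CACCTG. The *Ctnnd1* promoter nearest the start in the expression table held 1 CTTTG, 32 bases after its start. Another *Ctnnd1* promoter, 8212 bases from the start in the expression table, held 0. These matches describe letters in a window, and binding was not measured here.

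α-catenin, encoded by *Ctnna1* (ENSMUSG00000037815; 35118888 to 35254773 on the plus strand of chromosome 18), couples the cadherin complex to actin. Its crypt FPKM was 112, 115 and 127 in wild-type and 118, 115 and 123 in *Ctnnb1*Δi.enh libraries, with groups that overlapped. The means, 118 ± 7.97 and 119 ± 4.50 (SD, n = 3 each), gave a log2 fold change of 0.010 (95% interval -0.28 to 0.30), which was negative without wild-type replicate 1 (-0.026), wild-type replicate 2 (-0.0078) or knockout replicate 3 (-0.019). In tumors it was 165, 164 and 169.6 FPKM in *Apc* Min/+ and 171, 172 and 181 in *Ctnnb1*Δi.enh;*Apc* Min/+ libraries. All 3 knockouts were above all controls, by a narrow margin. The log2 fold change was 0.070 (95% interval -0.14 to 0.28, adjusted p = 0.721 from limma), and it was -0.15 after quantile normalization, -0.040 with the same sum of FPKM and -0.18 relative to epithelial markers. The expression table gives this gene a length of 3698 bases, whereas its exons cover 6425 bases in GENCODE M21, so its FPKM is on a different length basis from those of the other members.

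p120-catenin, encoded by *Ctnnd1* (ENSMUSG00000034101; chromosome 2, 84600071 to 84650765, minus strand), stabilises cadherins at the membrane and had the lowest FPKM of the members as deposited, a rank that may rest on bases it shares with *Gm28635*. Its crypt FPKM was 8.42, 7.997 and 9.31 in wild-type and 9.79, 8.97 and 9.04 in *Ctnnb1*Δi.enh libraries. The groups overlapped through wild-type replicate 3, the highest of its group, without which all knockouts were above the other 2 wild types. The log2 fold change was 0.11 (95% interval -0.16 to 0.37), with the lowest unadjusted p of the 10 members in crypts (0.371 in limma). Tumors had 12.9, 12.7 and 10.7 FPKM in *Apc* Min/+ and 11.3, 12.8 and 15.2 in *Ctnnb1*Δi.enh;*Apc* Min/+ libraries. The groups overlapped, and the log2 fold change was again 0.11 (95% interval -0.21 to 0.43). It was -0.15 relative to epithelial markers and 0.00021 with the same sum of FPKM without the 50 highest genes. It rested on knockout replicate 3, without which it was 0.00097, and it was 0.21 without knockout replicate 1, while in crypts it was between 0.061 and 0.16 without each library in turn.

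**Figure D1:**
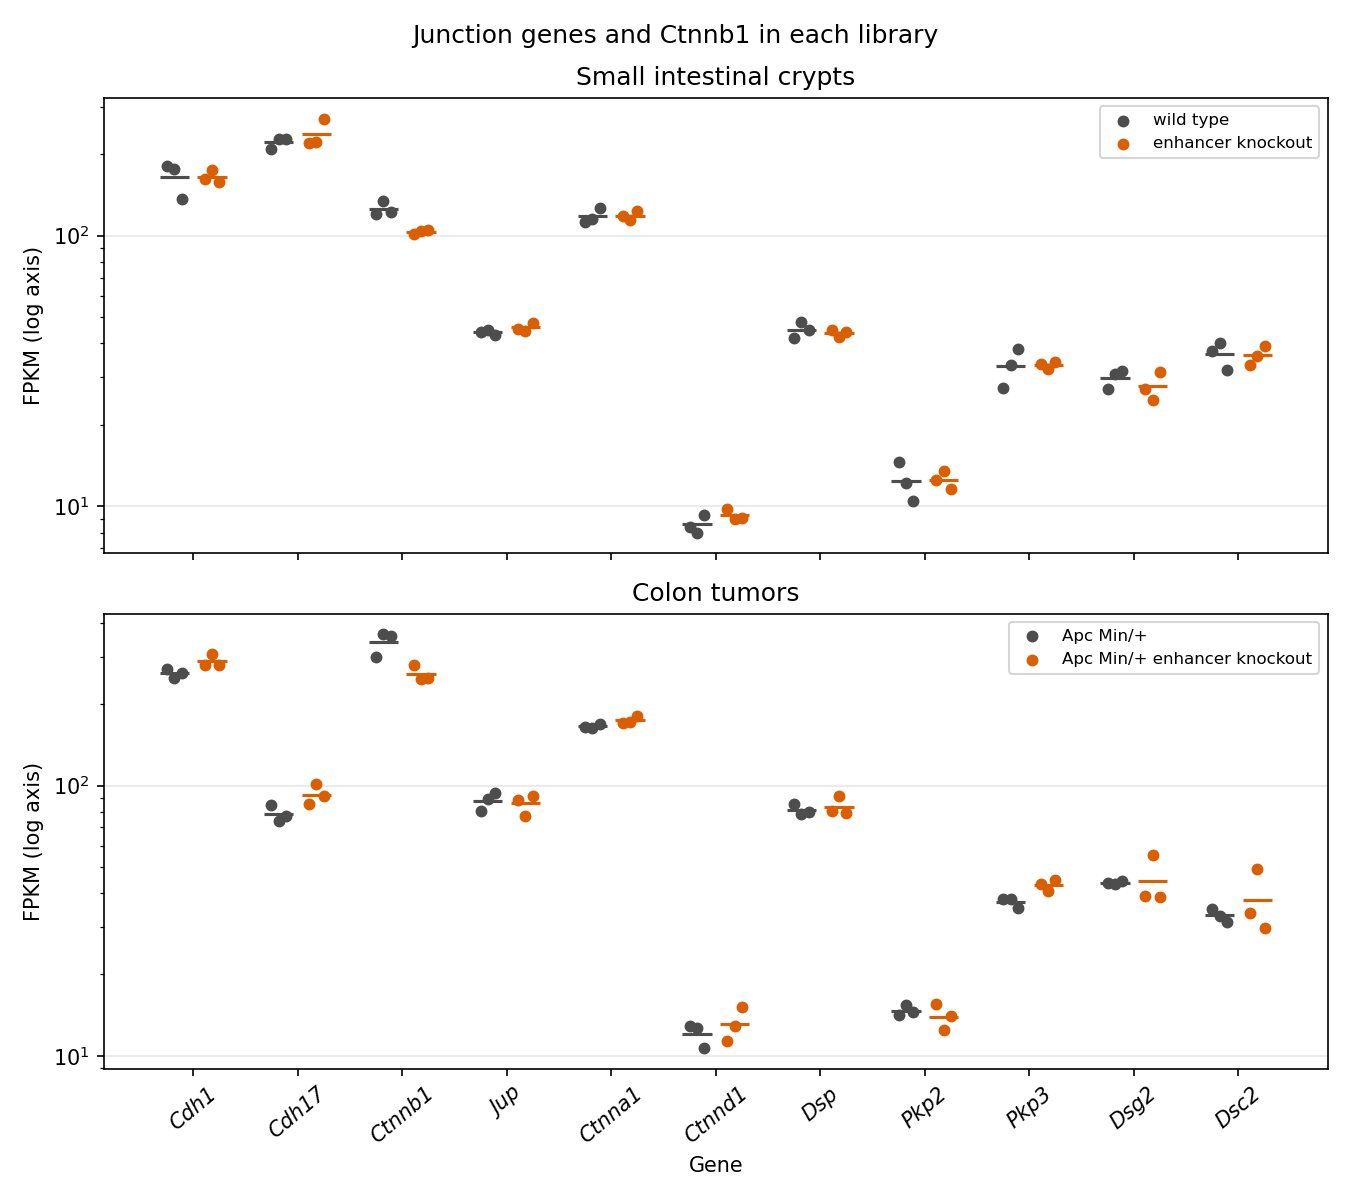
FPKM of the 10 junction genes and *Ctnnb1* on a log axis in crypts (top) and tumors (bottom), with 1 point per library, short lines for group means, grey for controls and orange for mice lacking the enhancer. The points of *Jup* overlap between genotypes in both tissues (42.8 to 47.8 FPKM in crypts and 77.2 to 94.2 in tumors), while those of *Ctnnb1* do not overlap on the deposited scale, and in crypts overlap once libraries are set to the same sum of FPKM.

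E-cadherin, encoded by *Cdh1* (ENSMUSG00000000303; chromosome 8, 106603351 to 106670246, plus strand), is the classical cadherin of epithelia and the main binding partner of β-catenin at the membrane. Its crypt FPKM was 181, 176 and 137 in wild-type and 162, 175 and 158 in *Ctnnb1*Δi.enh libraries. The groups overlapped and wild-type replicate 3 was the lowest library. The means were nearly equal, 164.9 ± 24.2 and 165 ± 9.12 (SD, n = 3 each), with a log2 fold change of 0.011 (95% interval -0.36 to 0.38). Without wild-type replicate 3 it was -0.12 with all knockouts below the remaining wild types, and without knockout replicate 2 it was -0.033.

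In tumors, FPKM of *Cdh1* was 271, 251 and 260 in *Apc* Min/+ and 280, 307 and 279 in *Ctnnb1*Δi.enh;*Apc* Min/+ libraries. All 3 knockouts were above all controls. The log2 fold change was 0.15 (SE 0.105, 95% interval -0.10 to 0.40), which did not pass the test (adjusted p = 0.524 from limma). It was 0.036 with the same sum of FPKM, where the groups overlapped, and negative after quantile normalization (-0.054) and relative to epithelial markers (-0.11).

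LI-cadherin, encoded by *Cdh17* (ENSMUSG00000028217; chromosome 4, 11758147 to 11817895, plus strand), is an intestinal cadherin with a short tail that does not bind catenins. It was the most abundant member in crypts, at 209, 227 and 228 FPKM in wild-type and 221, 222 and 271 in *Ctnnb1*Δi.enh libraries. The groups overlapped, with knockout replicate 3 highest and wild-type replicate 1 lowest. The log2 fold change was 0.098 (95% interval -0.25 to 0.45), and without knockout replicate 3 it was 0.0017. With the same total of FPKM times gene length it was 0.12 and with the same sum of FPKM 0.25, and in both all knockouts were above all wild types, while it was 0.017 after quantile normalization.

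Tumor FPKM of *Cdh17* was 85.1, 73.9 and 77.3 in *Apc* Min/+ and 85.6, 101 and 91.2 in *Ctnnb1*Δi.enh;*Apc* Min/+ libraries. The knockouts were above the controls, although knockout replicate 1 exceeded *Apc* Min/+ replicate 1 by little. Means were 78.8 ± 5.73 and 92.6 ± 7.84 (SD, n = 3 each), and the log2 fold change of 0.23 was the largest of the members (95% interval -0.012 to 0.48, unadjusted p = 0.0596 and adjusted p = 0.364 in limma). Without each library in turn it was between 0.17 and 0.29. The highest value was without *Apc* Min/+ replicate 1 (unadjusted p = 0.0462 and adjusted p = 0.296 in limma). The log2 fold change was 0.059 after quantile normalization and -0.023 relative to epithelial markers, and in both of these and with the same sum of FPKM (0.12) the tumor groups of *Cdh17* no longer stood apart.

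Desmoplakin, encoded by *Dsp* (ENSMUSG00000054889; chromosome 13, 38151294 to 38198577, plus strand), anchors keratin filaments to the desmosome. Crypt libraries gave 41.8, 47.8 and 44.7 FPKM in wild-type and 44.9, 42.1 and 44.1 in *Ctnnb1*Δi.enh libraries. The knockout values lay inside the wider range of the wild types. *Dsp* had a log2 fold change of -0.033 (95% interval -0.30 to 0.23), turning to 0.015 without wild-type replicate 2 and to 0.11 with the same sum of FPKM. For *Dsp* in tumors, the values were 85.6, 78.6 and 79.5 FPKM in *Apc* Min/+ and 80.4, 91.3 and 79.4 in *Ctnnb1*Δi.enh;*Apc* Min/+ libraries. The groups overlapped, and the log2 fold change was 0.041 (95% interval -0.18 to 0.26), or -0.023 without knockout replicate 2, the highest library.

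Plakophilin 2, encoded by *Pkp2* (ENSMUSG00000041957; chromosome 16, 16213318 to 16272712, plus strand), is an armadillo protein of the desmosomal plaque in simple epithelia. In crypts, *Pkp2* was measured at 14.5, 12.2 and 10.5 FPKM in wild-type and 12.5, 13.5 and 11.6 in *Ctnnb1*Δi.enh libraries. The wild-type values enclosed those of the knockouts, with a log2 fold change of 0.022 (95% interval -0.32 to 0.37) that turned to -0.089 without wild-type replicate 3 and to -0.031 without knockout replicate 2. Tumor libraries gave 14.1, 15.4 and 14.5 FPKM in *Apc* Min/+ and 15.5, 12.4 and 13.97 in *Ctnnb1*Δi.enh;*Apc* Min/+ libraries. Here the knockouts enclosed the controls, and the log2 fold change was -0.072 (95% interval -0.32 to 0.17), or 0.0053 without knockout replicate 2. It was -0.18 with the same sum of FPKM without the 50 highest genes.

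Plakophilin 3, encoded by *Pkp3* (ENSMUSG00000054065; chromosome 7, 141078218 to 141090510, plus strand), binds desmosomal cadherins, plakoglobin and desmoplakin. Crypt levels of *Pkp3* were 27.3, 33.2 and 38.2 FPKM in wild-type and 33.7, 32.2 and 34.0 in *Ctnnb1*Δi.enh libraries. The wild-type libraries spread widely around the knockouts, and the log2 fold change was 0.029 (95% interval -0.32 to 0.37), or -0.098 without wild-type replicate 1. Tumor levels of *Pkp3* were 38.2, 38.2 and 35.2 FPKM in *Apc* Min/+ and 43.4, 40.8 and 44.6 in *Ctnnb1*Δi.enh;*Apc* Min/+ libraries. All knockouts were above all controls. Means were 37.2 ± 1.71 and 43.0 ± 1.94 (SD, n = 3 each), and the log2 fold change was 0.21 (SE 0.0799, 95% interval 0.015 to 0.40).

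*Pkp3* in tumors was the only one of the 20 member and tissue pairs with an unadjusted p under 0.05 in limma on the deposited scale (0.0385), and it did not pass adjustment (adjusted p = 0.331 from limma). Its 2 groups stood apart also with the same sum of FPKM, at 0.096, but not after quantile normalization, and its difference was -0.049 relative to epithelial markers. With 1 library left out, its unadjusted p was under 0.05 only without knockout replicate 2 (0.028 in limma) and otherwise between 0.0626, without *Apc* Min/+ replicate 1, and 0.118, without *Apc* Min/+ replicate 3, while the log2 fold change stayed between 0.17 and 0.24.

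Desmoglein 2, encoded by *Dsg2* (ENSMUSG00000044393; 20558074 to 20604521 on the plus strand of chromosome 18), is the desmoglein of simple epithelia. Its crypt FPKM was 27.1, 30.8 and 31.6 in wild-type and 27.04, 24.8 and 31.4 in *Ctnnb1*Δi.enh libraries. The groups overlapped, with a log2 fold change of -0.11 (95% interval -0.42 to 0.21). Without knockout replicate 3 it was -0.20 and all knockouts were below all wild types, without knockout replicate 2 it was -0.029, and with the same sum of FPKM it was 0.040. Among tumors, *Dsg2* had 43.5, 43.4 and 44.4 FPKM in *Apc* Min/+ and 39.0, 55.3 and 38.8 in *Ctnnb1*Δi.enh;*Apc* Min/+ libraries. The controls were tight, while knockout replicate 2 was above all of them and the other knockouts below. *Dsg2* had a log2 fold change of -0.00058 (95% interval -0.35 to 0.35), and without knockout replicate 2 it was -0.17 with the remaining knockouts below all controls. It turned positive without knockout replicate 1 (0.081), knockout replicate 3 (0.086) or *Apc* Min/+ replicate 3 (0.010).

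Desmocollin 2, encoded by *Dsc2* (ENSMUSG00000024331; chromosome 18, 20030633 to 20059554, minus strand), pairs with *Dsg2* in desmosomes of simple epithelia. Its crypt FPKM was 37.4, 40.3 and 31.8 in wild-type and 33.3, 36.1 and 39.2 in *Ctnnb1*Δi.enh libraries. The groups overlapped and the log2 fold change was -0.0082 (95% interval -0.33 to 0.31), turning positive without wild-type replicate 1 (0.013), wild-type replicate 2 (0.066) or knockout replicate 1 (0.049). Tumor levels of *Dsc2* were 35.0, 33.0 and 31.2 FPKM in *Apc* Min/+ and 33.7, 49.3 and 29.8 in *Ctnnb1*Δi.enh;*Apc* Min/+ libraries. Knockout replicate 2 was again far above the rest, and the other knockouts lay around the controls. Its difference was 0.15 in log2 (95% interval -0.29 to 0.59), and -0.059 without that library. Knockout replicate 2 was also the tumor library with the highest *Cdh1*, *Cdh17* and *Dsp*, and the one with the lowest *Jup* and *Pkp2*. It is the library that stood apart on Paneth, enterocyte and brush border genes, and a link between these was not tested.

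Some members share exonic bases with another gene, and the sources used here do not give whether counts were stranded. On the opposite strand, *Lrrtm2* shares 95 bases with *Ctnna1*, *Gm10129* 499 bases with *Dsp* and *Gm16090* 330 bases with *Dsg2*. The highest mean FPKM of these partners was 1.03, that of *Gm16090* in tumors. *Gm28635* shares 4482 bases with *Ctnnd1* on the same strand and is listed at 0 in both tables, so fragments of the shared bases may have been left out for both genes or given to *Ctnnd1*. If they were left out, the level of *Ctnnd1* is understated and its rank below *Pkp2* is not certain. *Ulk4* shares 759 exonic bases with *Ctnnb1* on the opposite strand, with a mean of 0.057 FPKM in crypts and 0.371 in tumors.

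**Figure D2:**
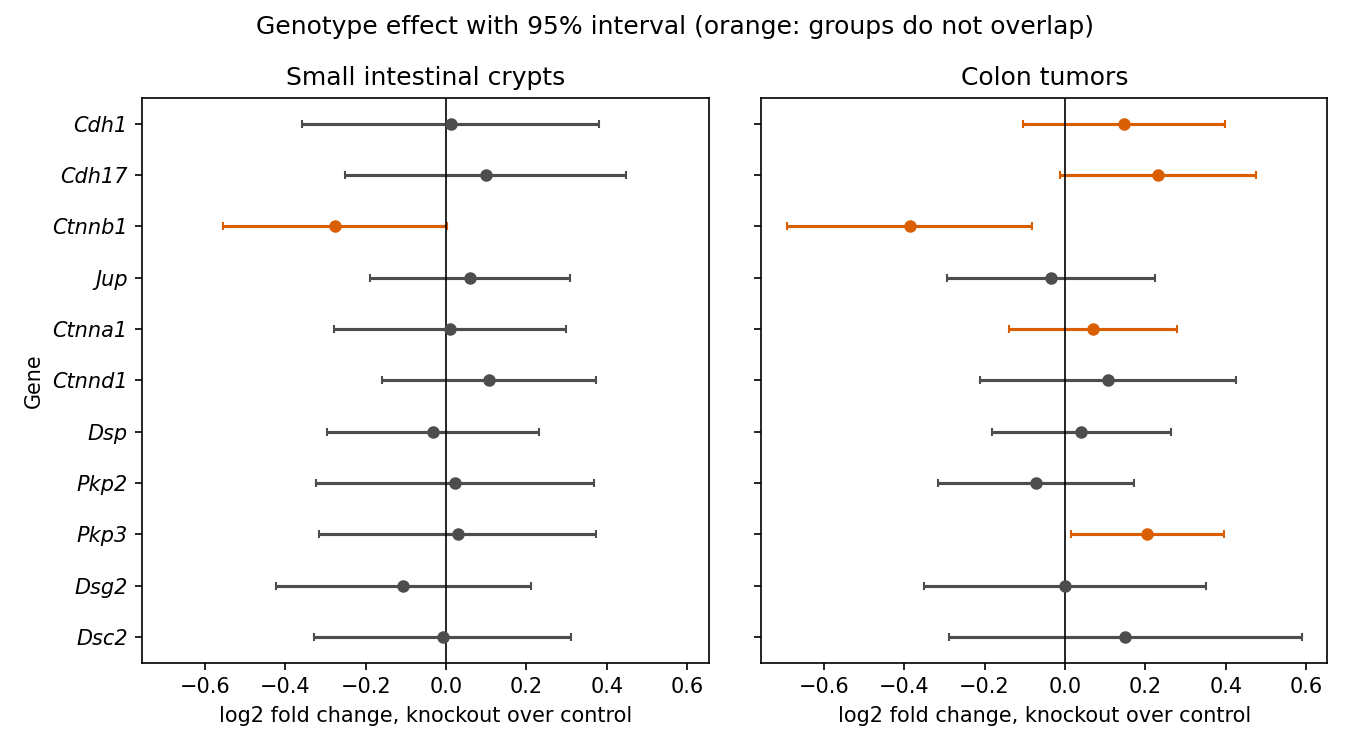
Log2 fold change of knockout over control on the deposited scale, with its 95% interval from limma, for the 10 junction genes and *Ctnnb1* in crypts (left) and tumors (right); orange marks genes whose 2 groups of 3 libraries do not overlap. Member intervals include 0 except that of *Pkp3* in tumors, and the 4 tumor members that stand apart (*Cdh1*, *Cdh17*, *Ctnna1*, *Pkp3*) are on the higher side here but are all negative relative to epithelial markers.

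In crypts, 0 of the 10 members had an adjusted p under 0.05 in limma, beside 0 of 14176 tested genes (0%). An unadjusted p under 0.05 was found for 0 members, where 5.85% of all tested genes had one, and 0 members had groups that did not overlap, where 11.9% of all genes did in either direction and 6.79% with the knockouts higher. The voom method of limma on fragments recovered from the FPKM also gave 0 genes past adjustment, with 803 at an unadjusted p under 0.05 beside 829 in the log2 FPKM fit. On the deposited scale 7 members were higher and 3 lower, but all 10 were higher with the same sum of FPKM, 3 with the same total of FPKM times gene length without the 50 highest genes, and 2 after quantile normalization, with the same sum of FPKM without the 50 highest genes or relative to epithelial markers. The median log2 fold change of the members was 0.017 and that of all tested genes 0.014.

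In tumors, 0 of the 10 members had an adjusted p under 0.05 in limma, beside 0 of 16743 tested genes (0%). An unadjusted p under 0.05 was found for 1 member, where 14.5% of all tested genes had one. The groups did not overlap for 4 members, where 22.1% of all genes stood apart in either direction. All 4 were higher in the knockouts on the deposited scale, as 11.4% of all genes were, but only 1 (*Pkp3*) still stood apart with the same total or the same sum of FPKM, and 0 after quantile normalization, while relative to epithelial markers the 4 apart were *Jup*, *Ctnna1*, *Pkp2* and *Pkp3*, all lower, where 6306 of 16743 genes stood apart. With voom in limma, 0 genes passed adjustment and 2545 had an unadjusted p under 0.05, beside 2421 in the log2 FPKM fit. With 10 members, a single gene moves these shares by 10 points, and nothing particular to the members is read from them.

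Of the tumor members, 7 were higher and 3 lower with a median log2 fold change of 0.089, beside 0.0075 for all tested genes, but with the same sum of FPKM 5 were higher and the median was -0.020, after quantile normalization 4 were higher, and relative to epithelial markers 0 were. Part of these shifts is common to all genes. The median over every tested gene went from 0.014 to 0.14 when crypt libraries were rescaled to the same sum of FPKM, and in tumors from 0.0075 to -0.25 under the epithelial reference. Relative to the median of all tested genes, the members' median in crypts was 0.0023 on the deposited scale, 0.017 with the same sum of FPKM and -0.089 after quantile normalization. In tumors it was 0.082 on the deposited scale, 0.071 with the same sum of FPKM and -0.070 after quantile normalization. Relative to that median, *Jup* differed in crypts by 0.045 on the deposited scale, 0.062 with the same sum of FPKM and -0.058 after quantile normalization. It differed by -0.042 in tumors on the deposited scale and by -0.19 after quantile normalization, while *Ctnnb1* differed by between -0.41 and -0.27 in crypts and between -0.55 and -0.39 in tumors over the scalings.

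**Figure D3:**
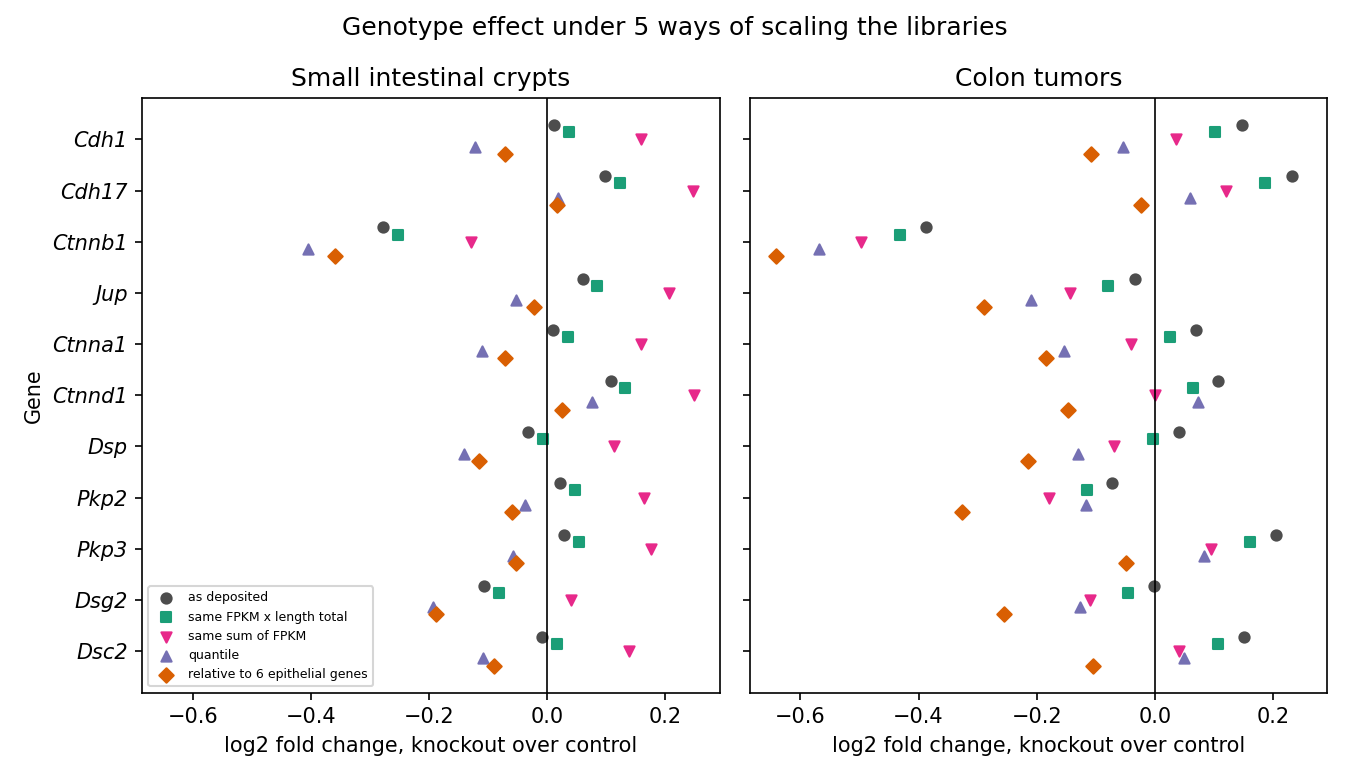
Log2 fold change of knockout over control for the 10 junction genes and *Ctnnb1* under 5 ways of scaling the libraries, in crypts (left) and tumors (right), with a marker for each scaling. *Ctnnb1* lies below 0 under all 5 in both tissues, while every member except *Cdh17* and *Ctnnd1* in crypts and *Jup*, *Pkp2* and *Dsg2* in tumors is found on both sides of 0.

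Since β-catenin and plakoglobin compete for the same cadherin tail, the ratio of their mRNAs was compared, which does not depend on a scaling factor applied to a whole library. The denominator is the gene whose enhancer was removed. A higher ratio or share of *Jup* thus follows by construction from lower *Ctnnb1* where *Jup* is nearly equal between groups. Both are given as a description and not as a separate result about *Jup*. The ratio of *Jup* to *Ctnnb1* FPKM in crypts was 0.366, 0.334 and 0.349 in wild-type and 0.443, 0.427 and 0.456 in *Ctnnb1*Δi.enh libraries. All knockouts were above all wild types. The mean log2 ratio differed by 0.34, a fold of 1.26 (exact two-sided permutation test, p = 0.1, n = 3 per group), and by between 0.31 and 0.37 without each library in turn. In tumors the ratio was 0.269, 0.246 and 0.263 in *Apc* Min/+ and 0.318, 0.311 and 0.367 in *Ctnnb1*Δi.enh;*Apc* Min/+ libraries. The groups again stood apart, by 0.35 in log2 and a fold of 1.28 (exact permutation test, p = 0.1, n = 3 per group).

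The smallest p that 3 libraries against 3 can give in this test is 0.1, and adjusted over the 6 ratios compared it was 0.15 for both. How far the numerator or the denominator carried the difference depended on the scale in crypts. On the deposited scale *Ctnnb1* differed by -0.28 in log2 and *Jup* by 0.060, but with the same sum of FPKM by -0.13 and 0.21. In tumors they differed by -0.39 and -0.034 on the deposited scale, and *Jup* was lower under all scalings. As a share of the *Jup* and *Ctnnb1* FPKM together, *Jup* was 25.9 ± 0.866% in crypts of wild-type mice and 30.6 ± 0.692% in those lacking the enhancer (mean ± SD, n = 3 each). In tumors it was 20.6 ± 0.748% with the enhancer and 24.9 ± 1.72% without it (mean ± SD, n = 3 each). The sum of both genes was 169.7 ± 8.02 and 149 ± 2.97 FPKM in the crypt groups and 428 ± 42.6 and 345 ± 21.5 FPKM in the tumor groups, lower in the knockouts of each tissue on the deposited scale.

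**Figure D4:**
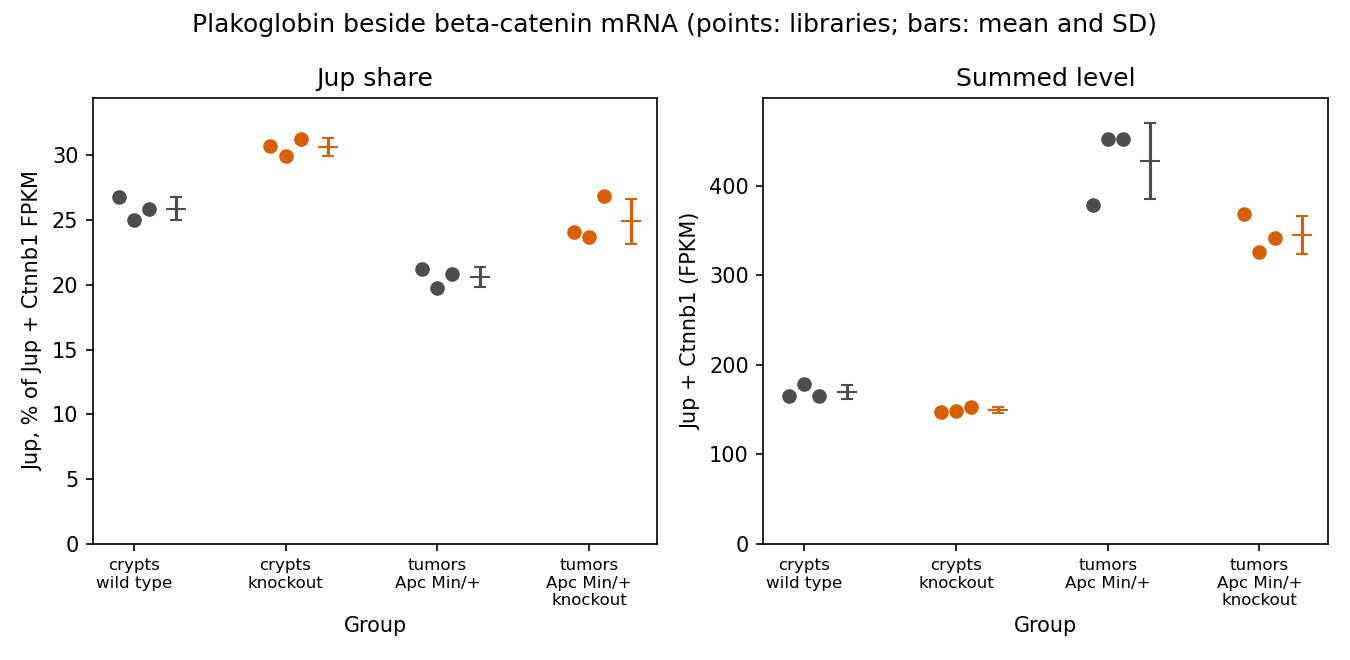
Share of *Jup* in the *Jup* and *Ctnnb1* FPKM of each library in percent (left) and the sum of both in FPKM (right), with 1 point per library, mean and SD beside them, grey for controls and orange for mice lacking the enhancer. The share of *Jup* is higher in every knockout library than in any control of its tissue (means 30.6 against 25.9% in crypts and 24.9 against 20.6% in tumors), while the summed FPKM is lower on the deposited scale. A higher share follows by construction from lower *Ctnnb1* where *Jup* is nearly equal between groups.

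The supply of tail-binding mRNA was then set against E-cadherin. Here too, a lower ratio follows by construction from lower *Ctnnb1* where *Cdh1* is nearly equal between groups. *Ctnnb1* over *Cdh1* in crypts was 0.664, 0.762 and 0.895 in wild-type and 0.627, 0.595 and 0.665 in *Ctnnb1*Δi.enh libraries. Wild-type replicate 1 lay within the knockouts, so the groups overlapped (log2 difference -0.29, exact permutation test, p = 0.2, n = 3 per group). In tumors it was 1.103, 1.45 and 1.38 in *Apc* Min/+ and 0.997, 0.809 and 0.897 in *Ctnnb1*Δi.enh;*Apc* Min/+ libraries. The tumor knockouts were all lower (log2 difference -0.53, exact permutation test, p = 0.1 and 0.15 after adjustment, n = 3 per group).

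The same ratio with *Jup* added to the numerator is smaller in difference by construction when *Jup* is nearly equal between groups, and is given as a description. *Ctnnb1* plus *Jup* over *Cdh1* was 0.907, 1.02 and 1.21 in wild-type and 0.905, 0.849 and 0.967 in *Ctnnb1*Δi.enh crypts, with overlap (log2 difference -0.19, exact permutation test, p = 0.2, n = 3 per group). In tumors it was 1.40, 1.81 and 1.74 in *Apc* Min/+ and 1.31, 1.06 and 1.23 in *Ctnnb1*Δi.enh;*Apc* Min/+ libraries. The tumor groups stood apart (log2 difference -0.45, exact permutation test, p = 0.1 and 0.15 after adjustment, n = 3 per group). These are ratios of mRNA per length, and the amounts of protein at the membrane were not analysed here.

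Whether the genotype effect differed between tumors and crypts was tested in limma over all 12 libraries, each effect being formed inside its own table. Of 13370 genes, 0 (0%) had an adjusted p under 0.05, and 8.47% had an unadjusted p under 0.05, against 0 of the 10 members; no other tool was run for this contrast. The difference of *Jup* between tissues was -0.094 (95% interval -0.40 to 0.21) and that of *Ctnnb1* -0.11 (95% interval -0.45 to 0.23). Without each library in turn, that of *Jup* was between -0.16 and -0.019 and that of *Ctnnb1* between -0.20 and -0.059. In limma, the member with the lowest unadjusted p was *Pkp3*, at 0.18 (95% interval -0.18 to 0.53, unadjusted p = 0.298 from limma). That difference depended on single libraries: without wild-type crypt replicate 1 it was 0.30 (95% interval 0.018 to 0.59, unadjusted p = 0.0394 and adjusted p = 0.367 in limma), and without wild-type crypt replicate 3 it was 0.064. *Pkp3* is therefore not shown to respond differently in tumors, although its unadjusted p was under 0.05 there and not in crypts.

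The members and *Ctnnb1* were put in order of their level per length within each tissue. In crypts, the order of mean FPKM over both genotypes was *Cdh17* (229), *Cdh1* (165), *Ctnna1* (118), *Ctnnb1* (115), *Jup* (44.8), *Dsp* (44.2), *Dsc2* (36.3), *Pkp3* (33.1), *Dsg2* (28.8), *Pkp2* (12.5) and *Ctnnd1* (8.92). Over the 6 libraries, the ranges overlapped between neighbours for *Ctnna1* and *Ctnnb1*, *Jup* and *Dsp*, *Dsc2* and *Pkp3*, and *Pkp3* and *Dsg2*. In tumors, the order over both genotypes was *Ctnnb1* (299.7), *Cdh1* (275), *Ctnna1* (170.3), *Jup* (87.0), *Cdh17* (85.7), *Dsp* (82.5), *Dsg2* (44.1), *Pkp3* (40.1), *Dsc2* (35.3), *Pkp2* (14.3) and *Ctnnd1* (12.6). Here *Jup*, *Cdh17* and *Dsp* were not separated beyond their ranges, nor were *Ctnnb1* and *Cdh1*, the run from *Dsg2* to *Dsc2*, and *Pkp2* and *Ctnnd1*. Some of these neighbours changed places between genotypes on the deposited scale: in crypts *Ctnnb1* was above *Ctnna1* and *Dsp* above *Jup* in wild types only, and in tumors *Ctnnb1* was above *Cdh1*, and *Jup* and *Dsp* above *Cdh17*, in controls only. The places of *Ctnna1* rest on its length of 3698 bases in the expression table, against 6425 exonic bases in GENCODE M21. LI-cadherin headed the order in crypts and stood beside *Jup* and *Dsp* in tumors, which is an order within each table and not a test between them.

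Most members, but not all, varied less between libraries of a group than the typical tested gene. In crypts the pooled coefficient of variation within groups was 3.14% for *Jup*, the steadiest member, and 12.7% for *Pkp2*, the least steady, with a member median of 9.67%. Genes with a mean of at least 10 FPKM had a median of 13.9%, and all tested genes 17.6%. In tumors the members ran from 2.59% for *Ctnna1* to 19.8% for *Dsc2*, with a median of 8.09%, beside 10.4% for genes of at least 10 FPKM and 14.7% for all tested genes. *Dsg2* (15.1%) and *Dsc2* were above the median of all tested genes there, and *Ctnnd1* (12.7%) above that of the genes of at least 10 FPKM.

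Other adherens junction genes, 20 in all, include the nectins, a second family of adhesion proteins, and proteins that bind catenins. In crypts, 11 were tested, 4 higher and 7 lower on the deposited scale, and 0 had an unadjusted p under 0.05 or groups apart. The neural α-catenin *Ctnna2* was at 0 in all crypt libraries, and the most abundant gene was *Nectin2*, with a mean of 37.3 FPKM. In tumors, 16 were tested, 9 higher and 7 lower, with 3 apart (1 higher, 2 lower) and 1 with an unadjusted p under 0.05. That gene was *Nectin3*, at 4.29, 3.67 and 3.42 FPKM in *Apc* Min/+ and 4.27, 5.65 and 4.88 in *Ctnnb1*Δi.enh;*Apc* Min/+ libraries (log2 fold change 0.34, adjusted p = 0.343 from limma), with overlapping groups. The phosphatase *Ptprm* stood apart at 0.36 (adjusted p = 0.371 from limma). The 2 that stood apart and lower were *Arvcf* at -0.19 (adjusted p = 0.381 from limma) and *Plekha7* at -0.16 (adjusted p = 0.425 from limma).

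Other desmosome genes numbered 11. In crypts 4 were tested, 3 higher and 1 lower with 0 apart, and *Dsg1a*, a desmoglein of the epidermis, was at 0 in all libraries. In tumors 6 were tested, 2 higher and 4 lower, and both higher ones stood apart. They were the plaque protein envoplakin, *Evpl*, at 8.58, 9.23 and 9.23 FPKM in *Apc* Min/+ and 11.7, 11.1 and 12.004 in *Ctnnb1*Δi.enh;*Apc* Min/+ libraries (log2 fold change 0.34, unadjusted p = 0.00481, adjusted p = 0.269 from limma), and *Perp*, a desmosomal membrane protein (0.21, adjusted p = 0.349 from limma). *Perp* was the most abundant of the list, with means of 89.4 FPKM in crypts and 77.8 in tumors. The 4 lower genes had overlapping groups. Of these, *Pkp1* had the lowest unadjusted p, with a log2 fold change of -0.31 (adjusted p = 0.349 from limma). The median of the tested genes in tumors was -0.19.

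Keratins of simple epithelia, to which desmosomes attach, were all 6 tested. In crypts 2 were higher and 4 lower, with 0 apart. In tumors 5 were higher and 1 lower on the deposited scale, 4 of them apart and higher. *Krt20*, a keratin of differentiated cells, had 92.9, 47.8 and 49.2 FPKM in *Apc* Min/+ and 112, 125 and 115 in *Ctnnb1*Δi.enh;*Apc* Min/+ libraries (log2 fold change 0.96, adjusted p = 0.270 from limma). *Krt19* differed by 0.37 (adjusted p = 0.396 from limma).

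Brush border and other cadherins numbered 7. In crypts 5 were tested, 1 higher and 4 lower, and *Celsr1*, a cadherin of planar polarity, was the 1 apart, at 2.61, 3.57 and 2.45 FPKM in wild-type and 1.85, 1.68 and 2.28 in *Ctnnb1*Δi.enh libraries (-0.46, adjusted p = 0.841 from limma). In tumors 6 were tested, 5 higher and 1 lower, with 1 apart. *Cdhr5*, a protocadherin that links microvilli, had 55.6, 32.6 and 35.4 FPKM in *Apc* Min/+ and 57.5, 118 and 68.3 in *Ctnnb1*Δi.enh;*Apc* Min/+ libraries (0.94, adjusted p = 0.303 from limma), and its partner *Cdhr2* differed by 0.83 with overlap (adjusted p = 0.344 from limma).

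Repressors of E-cadherin transcription, 6 genes of the Snail, Zeb and Twist families, were below the filter in crypts, with a sum of at most 0.536 FPKM in any library. In tumors 5 were tested and all 5 were higher on the deposited scale, with 1 apart. Their sums were 15.2, 9.07 and 10.8 FPKM in *Apc* Min/+ and 13.04, 16.8 and 15.6 in *Ctnnb1*Δi.enh;*Apc* Min/+ libraries, which overlapped. *Zeb1* was at 1.37, 1.27 and 1.28 FPKM in *Apc* Min/+ and 1.68, 1.96 and 1.88 in *Ctnnb1*Δi.enh;*Apc* Min/+ libraries (0.37, adjusted p = 0.320 from limma). The most abundant was *Snai1*, with a mean of 6.10 FPKM. These genes are also expressed by stromal cells, and their source in the tumors was not tested.

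Markers of cell types were compared between the tumor groups as well, and none passed adjustment in limma. All 7 epithelial markers were higher and stood apart in *Ctnnb1*Δi.enh;*Apc* Min/+ tumors on the deposited scale, 2 of them with an unadjusted p under 0.05 (*Vil1* 0.49, *Cldn7* 0.28) and 0 past adjustment in limma. Their summed FPKM was 4344, 4460 and 3867 in *Apc* Min/+ and 5174, 4952 and 5342 in *Ctnnb1*Δi.enh;*Apc* Min/+ libraries. The mean log2 level of 6 of them (*Epcam*, *Krt8*, *Krt18*, *Krt19*, *Cldn3*, *Cldn7*) differed by 0.25, which is more than the log2 fold change of any member. Relative to that level all 10 members were lower in the knockout tumors, *Pkp2* by -0.33 and *Jup* by -0.29 with an unadjusted p under 0.05 in limma. This reference lowers every gene alike, and under it 4870 of all 16743 tested genes had an unadjusted p under 0.05, 4649 of them lower. In crypts, 4 of the 7 were higher and 3 lower with 0 apart, and the mean level differed by 0.082.

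Goblet cell genes, 5 markers of mucus cells, all stood apart and higher in the knockout tumors with an unadjusted p under 0.05, 0 past adjustment in limma. Summed FPKM was 753, 638 and 640.5 in *Apc* Min/+ and 1193, 1720 and 1371 in *Ctnnb1*Δi.enh;*Apc* Min/+ libraries, with *Tff3* most abundant (458), and the mucin *Muc2* differed by 1.31 and *Agr2* by 1.03. In crypts 1 was higher and 4 lower, with sums of 3438, 5705 and 5095 in wild-type and 3120, 3806 and 4789 in *Ctnnb1*Δi.enh libraries. Their part in the junction gene values was not tested.

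Of 11 fibroblast and muscle genes in tumors, 9 were higher and 2 lower. The groups stood apart for 5 and the unadjusted p was under 0.05 for 5, all higher, and 4 genes met both: *Col1a1* (0.67), *Dcn* (0.40), *Pdgfra* (0.32) and *Acta2* (0.32). Summed FPKM was 624, 468 and 538 in *Apc* Min/+ and 641, 729 and 681 in *Ctnnb1*Δi.enh;*Apc* Min/+ libraries, with *Vim* most abundant (174). Of 5 endothelial genes 4 were higher and 1 lower, with sums of 32.5, 30.7 and 27.4 against 35.1, 33.8 and 32.7 FPKM, and *Pecam1* alone stood apart (0.47). The most abundant was *Cdh5* (13.6), itself an adherens junction cadherin. In crypts, 3 of the 11 fibroblast and muscle genes were tested and all 3 were lower, 1 apart (*Col3a1*, -0.54), and the single endothelial gene tested, *Pecam1*, was lower with overlap.

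Of 10 immune genes, 7 were tested in tumors, 5 higher and 2 lower, and *S100a8*, a neutrophil gene, stood apart at -0.98. Their sums were 373, 262 and 259 FPKM in *Apc* Min/+ and 336, 260.1 and 221 in *Ctnnb1*Δi.enh;*Apc* Min/+ libraries, with *Jchain* most abundant (157). In crypts 8 were tested, 1 higher and 7 lower, with *Jchain* (-0.45) and *Ptprc* (-0.27) apart. Their sums were 52.6, 58.0 and 57.2 FPKM in wild-type and 47.0, 51.8 and 46.4 in *Ctnnb1*Δi.enh crypts, with *Cd8a* most abundant (18.2) and *S100a8* at 0 in all libraries.

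Paneth cell genes, 6 in all, were all lower in *Ctnnb1*Δi.enh crypts, with 2 apart, *Mmp7* (-0.72) and *Lyz1* (-0.56), and *Defa24* most abundant (12578). All 6 were higher in the knockout tumors with 0 apart, with sums of 1712, 1793 and 1924 FPKM in *Apc* Min/+ and 2668, 4415 and 1409 in *Ctnnb1*Δi.enh;*Apc* Min/+ libraries. Mature enterocyte genes, 6 tested in crypts, were all higher with 0 apart, with sums of 3038, 4575 and 8971 FPKM in wild-type and 6818, 5087 and 7824 in *Ctnnb1*Δi.enh libraries and *Fabp2* most abundant (2817). In tumors 1 of these 6 was tested and the sums were at most 6.69 FPKM.

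Of 7 stomach genes, 4 were tested in crypts, all 4 lower with an unadjusted p under 0.05 but with overlapping groups. *Tff2* was at 122, 53.6 and 1.09 FPKM in wild-type and 0.105, 3.37 and 0.122 in *Ctnnb1*Δi.enh libraries, with wild-type replicates 1 and 2 high as in the sums. In tumors 2 were tested and lower, with *Atp4a*, the proton pump subunit, apart at -0.66 (adjusted p = 0.269 from limma). The desmosomal cadherins and plakophilin 1 of squamous epithelium are on a list of 8 squamous genes, of which 2 were tested in crypts (1 higher, 1 lower) and 4 in tumors (2 higher, 2 lower), with 0 apart. *Pkp1* was the most abundant in both (10.5 and 30.04 FPKM), and *Krt5* and *Ivl* were at 0 in all crypt libraries. In tumors the squamous sums were 74.1, 89.4 and 72.8 FPKM in *Apc* Min/+ and 88.9, 59.5 and 95.4 in *Ctnnb1*Δi.enh;*Apc* Min/+ libraries. The part of none of these cell types in the junction gene values was tested.

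Genes whose level followed that of *Jup* most closely over the 6 libraries of a tissue are given as a description. Among 4516 crypt genes with a mean of at least 10 FPKM they were *Dync1li1* (Pearson r = 0.986), *Atl2* (0.985) and *Gsdmc2* (0.983), and 46 genes had an r over 0.9. Among 5919 tumor genes they were *Cadm4* (0.983), *Add1* (0.978) and *Dmpk* (0.976), with 76 genes over 0.9. No gene was named in both tissues, and with 6 libraries of 2 genotypes many genes reach such values.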

How the data were processed

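RNA-seq was from 6 crypt and 6 tumor libraries, grouped by their labels. The authors deposited FPKM per gene and library in 1 table per tissue. Their methods name Hisat2, featureCounts and DESeq2, whereas the submitters' processing notes name cutadapt, HISAT2, Cufflinks 2.2.1 and DESeq2 with mm10; how FPKM were computed and the annotation are not given in the sources used here. FPKM times gene length gave whole fragments for 100% of values (tolerance 0.02). Genes with a mean of at least 0.5 FPKM were tested with limma 3.58.1 (R 4.3.3), with a variance trend and Benjamini-Hochberg adjustment over all tested genes at 0.05. For ratios, an exact permutation test (two-sided) was used. Tables and plots used Python 3.11.15, numpy 2.4.6, pandas 2.3.3 and matplotlib 3.10.9, and the limma step was tested on simulated data. Promoters came from RefSeq and exon overlaps from GENCODE M21. All 10 members and *Ctnnb1* are named; other lists give counts, up to 2 genes per tissue with the smallest unadjusted p among those under 0.05 or with groups apart, and the most abundant marker. For *Jup*, the 3 genes with the highest r are named. Genes were also named where a list had a gene at 0, and all fibroblast and muscle genes that met both criteria in tumors. Lower genes of the other junction lists were named beside the higher ones in tumors: *Arvcf*, *Plekha7* and *Pkp1*. The members and lists were chosen with earlier results of these data known. Alternatives were the pseudocount, filter, scaling, variance model, gene types, voom, an epithelial reference, the replicate number as a block and each library left out. The epithelial reference and the same sum of FPKM were added after the data were seen.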

Additional observations from a re-analysis of the deposited data

How the results depend on the processing

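Over the alternatives, 484 log2 fold changes of the members and *Ctnnb1* were recomputed. In 7 settings they cannot differ from the first fit; of the 330 other values, 271 kept their sign and 59 did not, and no ratio changed sign. *Ctnnb1* was lower in all. The cause of the changes of sign was not tested. Values are log2 fold changes of the knockout over its control unless a count is named.

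Quantile normalization gave, in crypts, *Cdh1* -0.12, *Ctnna1* -0.11, *Jup* -0.053, *Pkp2* -0.038 and *Pkp3* -0.059, a member median of -0.083, 2 members higher and 2 with groups apart, *Ctnna1* and *Dsp*, both lower, beside 1452 of 14171 genes apart. In tumors it gave *Cdh1* -0.054, *Ctnna1* -0.15 and *Dsp* -0.13, a median of -0.085, 4 members higher, 0 apart (3643 of 16740 genes) and 0 with an unadjusted p under 0.05. The difference between tissues was -0.043 for *Ctnna1* and -0.0025 for *Ctnnd1*.

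The same total of FPKM times gene length gave *Dsc2* 0.017 in crypts with 1 member apart (1520 of 14162 genes), and *Dsp* -0.0037 in tumors with 1 apart (3752 of 16749 genes) and 0 with an unadjusted p under 0.05; the difference between tissues was -0.0096 for *Ctnna1* and -0.067 for *Ctnnd1*. Without the 50 highest genes it gave, in crypts, *Cdh1* -0.040, *Ctnna1* -0.041, *Pkp2* -0.027 and *Pkp3* -0.022, a median of -0.034 and 3 members higher, and in tumors *Dsp* -0.0043, 1 apart (3761 of 16750 genes) and 0 with an unadjusted p under 0.05.

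The 3 scalings of this paragraph were added after seeing the data. The same sum of FPKM gave, in crypts, *Dsp* 0.11, *Dsg2* 0.040 and *Dsc2* 0.14, a median of 0.16 and 2 apart (1730 of 14153 genes), and in tumors *Ctnna1* -0.040, *Dsp* -0.069, a median of -0.020, 1 apart (3896 of 16762 genes) and 0 with an unadjusted p under 0.05. Without the 50 highest genes it gave, in crypts, *Cdh1* -0.051, *Ctnna1* -0.052, *Jup* -0.0017, *Pkp2* -0.038 and *Pkp3* -0.032, a median of -0.044 and 2 members higher, and in tumors *Ctnna1* -0.041, *Dsp* -0.070, a median of -0.020, 1 apart (4058 of 16757 genes) and 0 with an unadjusted p under 0.05. Relative to epithelial markers, crypts had *Cdh1* -0.071, *Ctnna1* -0.072, *Jup* -0.022, *Pkp2* -0.060 and *Pkp3* -0.053, a median of -0.065 and 2 members higher, and tumors *Cdh1* -0.11, *Cdh17* -0.023, *Ctnna1* -0.18, *Ctnnd1* -0.15, *Dsp* -0.21, *Pkp3* -0.049 and *Dsc2* -0.10, a median of -0.17, 0 members higher and 2 with an unadjusted p under 0.05.

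Without a variance trend, 1 tumor gene had an adjusted p under 0.05 in limma and 0 members had an unadjusted p under 0.05. The labels do not say whether libraries with the same replicate number share a source. The correlations of such libraries after removing group means were between -0.122 and 0.054. With the replicate number as a block, 0 tumor members had an unadjusted p under 0.05, and 0 genes had an adjusted p under 0.05 in either tissue, with 732 in crypts and 1882 in tumors at an unadjusted p under 0.05.

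With 1 library left out, 0 to 3 crypt genes had an adjusted p under 0.05 in limma, the 3 without wild-type replicate 3, and 0 to 2 crypt members stood apart, beside 2555 to 3975 of all tested genes. Crypt fold changes were from -0.12 to 0.086 for *Cdh1*, -0.026 to 0.064 for *Ctnna1*, -0.081 to 0.015 for *Dsp*, -0.089 to 0.14 for *Pkp2*, -0.10 to 0.14 for *Pkp3* and -0.10 to 0.066 for *Dsc2*. In tumors 0 to 1 member had an unadjusted p under 0.05 in limma, beside 1396 to 2752 of all tested genes. There 4 to 5 members stood apart, beside 4759 to 6492 of all tested genes. Tumor fold changes were from -0.098 to 0.041 for *Jup*, -0.023 to 0.079 for *Dsp*, -0.15 to 0.0053 for *Pkp2*, -0.17 to 0.086 for *Dsg2* and -0.059 to 0.30 for *Dsc2*. The difference between tissues was from 0.064 to 0.30 for *Pkp3*, -0.11 to 0.098 for *Ctnnd1*, -0.21 to 0.017 for *Pkp2*, -0.062 to 0.20 for *Dsg2* and -0.051 to 0.31 for *Dsc2*.

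Among genes with an unadjusted p under 0.05, 494 were higher and 335 lower in crypts on the deposited scale, 736 and 156 with the same sum of FPKM, and 313 and 475 with the same total without the 50 highest genes. In tumors, 1417 were higher and 1004 lower on the deposited scale, 1075 and 1346 with the same total, 1111 and 1284 after quantile normalization, 728 and 1791 with the same sum of FPKM and 221 and 4649 relative to epithelial markers.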
